A study of Mus musculus with 2 samples.

Results

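Keratin genes encode the intermediate filament proteins of epithelial cells. They were taken as every gene of both libraries whose symbol is Krt followed by a digit, which gave 48 of the 19465 listed genes, 26 of type I on chromosome 11 and 22 of type II on chromosome 15. The data are UMI counts (unique molecular identifiers, counted RNA molecules) from 2 tissue sections of nude mice, 1 from an animal or animals with a flat implant and 1 with a micropillar implant, whose surface carries small posts. In this kind of spatial transcriptomics, barcoded spots in a grid take up RNA from the section above them, and 1 spot can cover several cells. Both sections were formalin-fixed, paraffin-embedded and labelled as bone, and the series asks how surface microtopography bears on bone regeneration. Nude mice lack a working thymus and are nearly hairless, and both groups share this background. The labels name no allele, nor sex, age, implant site, time after implantation or the number of animals per library.

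A keratin filament is built from type I and type II keratins in equal parts, and epithelia are told apart by the pairs they make. Basal cells of the epidermis make Krt5 with Krt14, and the suprabasal layers switch to Krt1 with Krt10. The hair follicle adds its own sets: Krt71 to Krt73 with Krt25 to Krt28 in the inner root sheath (the cylinder that moulds the growing hair), Krt75 in the companion layer beside it, and the hard keratins of the Krt31 and Krt81 series in the hair shaft. The 48 genes were grouped on this basis into 3 basal, 9 suprabasal, 5 of hyperproliferation (Krt6a, Krt6b, Krt16, Krt17) and the companion layer, 7 of the inner root sheath, 13 of the hair shaft, 4 of simple epithelia, 4 of mucosa and cornea and 3 others (Krt42, Krt90, Krt222).

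The 7 inner root sheath genes lie in 2 unbroken runs, and their promoters are shown because these genes were detected in the same spots, as described further on. Krt25, Krt26, Krt27 and Krt28 follow one another on chromosome 11 between Krt24 and Krt10, and Krt71, Krt72 and Krt73 follow one another on chromosome 15 between Krt5 and Krt2, with no other protein-coding gene in between in GENCODE M21. Below are the 100 bases before each start, from RefSeq on GRCm38.p6, minus strand, read 5′ to 3′, with the letters TATAAA in capitals where they occur.
Krt25: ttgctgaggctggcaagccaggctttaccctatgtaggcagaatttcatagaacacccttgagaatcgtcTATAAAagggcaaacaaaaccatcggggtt
Krt26: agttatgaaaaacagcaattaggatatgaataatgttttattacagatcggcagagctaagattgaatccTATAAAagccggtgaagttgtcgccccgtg
Krt27: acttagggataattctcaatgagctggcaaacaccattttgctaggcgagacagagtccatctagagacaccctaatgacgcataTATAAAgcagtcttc
Krt28: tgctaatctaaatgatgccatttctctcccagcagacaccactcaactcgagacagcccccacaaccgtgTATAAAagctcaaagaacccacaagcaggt
Krt71: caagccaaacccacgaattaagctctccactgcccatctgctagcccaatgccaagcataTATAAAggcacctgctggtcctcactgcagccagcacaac
Krt72: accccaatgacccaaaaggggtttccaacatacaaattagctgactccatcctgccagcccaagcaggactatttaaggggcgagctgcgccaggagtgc
Krt73: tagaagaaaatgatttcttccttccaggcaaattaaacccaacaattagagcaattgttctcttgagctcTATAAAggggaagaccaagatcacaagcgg
Their positions are chr11:99322952-99323051 for Krt25, chr11:99337966-99338065 for Krt26, chr11:99351119-99351218 for Krt27, chr11:99374904-99375003 for Krt28, chr15:101743098-101743197 for Krt71, chr15:101786521-101786620 for Krt72 and chr15:101802361-101802460 for Krt73. On the gene's own strand, TATAAA began 30 bases before the start in Krt25, Krt26, Krt28 and Krt73, 40 before it in Krt71 and 15 before it in Krt27, and was absent from this stretch in Krt72. A start of TATAAA 20 to 40 bases upstream was found in 5 of the 7 inner root sheath genes and in 13 of 34 promoters of 33 keratins with a RefSeq entry (38.2%), against 655 of 32851 promoters in all (1.99%). Of the basal genes 0 of 2 had it. The stretch taken for Krt14 (chr11:100206031-100206130), however, lies inside that gene, whose 5′ end in GENCODE M21 is at 100207548. Of the hair shaft genes 4 of 8 had it, and of the suprabasal genes 1 of 7. The suprabasal gene is Krt10, the neighbour of Krt28, shown for comparison with TATAAA 26 bases before its start (chr11:99389365-99389464).
Krt10: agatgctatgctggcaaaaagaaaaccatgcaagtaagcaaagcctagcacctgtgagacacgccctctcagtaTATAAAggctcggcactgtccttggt
Over the whole stretch from 250 bases before to 50 after a start and on both strands, TATAAA was in 18 of the 34 keratin promoters and in 13.6% of all promoters. Only the exact letters were counted, so related strings such as TATATAA in Krt2 and Krt24 and GATAAAA in Krt5 were left out. These matches are a description of letters and no measure of factor binding.

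Keratin RNA was a small part of both sections and was concentrated in skin. Keratins made up 6177 of 2263345 UMIs in the flat library (0.273%, 95% interval 0.266 to 0.280) and 11391 of 3173632 in the micropillar library (0.359%, 0.352 to 0.366). The label bone covers only part of what the sections held. Genes of a neural list summed to 17512 and 23613 UMIs and genes of a fibrous and bone matrix list to 9227 and 14458. Of genes that define bone cells, Bglap (osteocalcin) had 294 and 483 UMIs, Ibsp (bone sialoprotein) 0 and 9, Sp7 (osterix) 2 and 11 and Dmp1, of osteocytes, 25 and 10. Alpl and Spp1, which bone-forming cells share with other cells, had 42 and 65 and 42 and 94 UMIs, and Ctsk and Acp5, of osteoclasts, 102 and 176 and 56 and 159. Kept spots had at least 100 UMIs, which left 2681 flat and 3064 micropillar spots with medians of 602 and 831 UMIs. In all comparisons there was 1 library per group, so no replicate check exists, no test was made, and every interval is a 95% exact interval of counting error alone. The 2 sections also differ in the tissue they hold: 7 gland secretion genes had 12 and 3476 UMIs, and the skeletal muscle list was lower in the micropillar library by 2.43 on the log2 scale. In these summed counts, fewer cells of a type and less RNA per cell cannot be told apart.

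At least 1 keratin UMI was found in 941 flat spots (35.1%) and 1606 micropillar spots (52.4%). With every spot thinned to 250 UMIs, and 653 flat and 331 micropillar spots below that depth left out, these shares were 23.2% and 30.5%. The highest sum in 1 spot was 71 UMIs in the flat section and 90 in the micropillar one. UMI totals of different keratins are not levels relative to each other (how many probes or fragments were counted per gene is not stated in these sources), so levels of different genes are not ranked, and ratios and shares of keratin UMIs are compared only between libraries or classes of spot.

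Of the 48 keratins, 31 had at least 20 UMIs over both libraries, 14 had 1 to 19, and Krt24, Krt40 and Krt76 had none. A count of 0 in either library allows up to 3 UMIs. In CPM (UMIs scaled to the total of the library), 28 of the 31 were higher in the micropillar library at any size, against 56.8% of the 12151 genes with at least 20 UMIs. Past 1.5-fold, 10 of the 31 were higher (background 9.00%) and 1 was lower (background 4.17%). In spots with at least 500 UMIs alone, 22 of 31 were past 1.5-fold higher (background 13.2% of 11693 genes). Without gland spots 7 were past 1.5-fold higher, and 24 were higher at any size. The median log2 ratio of micropillar over flat was 0.50 for the 31 keratins and 0.06 for all genes. The direction belonged to the section as a whole. Within the skin-bearing spots described further on, 3 of 30 keratins were past 1.5-fold higher (background 26.4%) and 19 lower (background 18.9%).

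**Figure D1:**
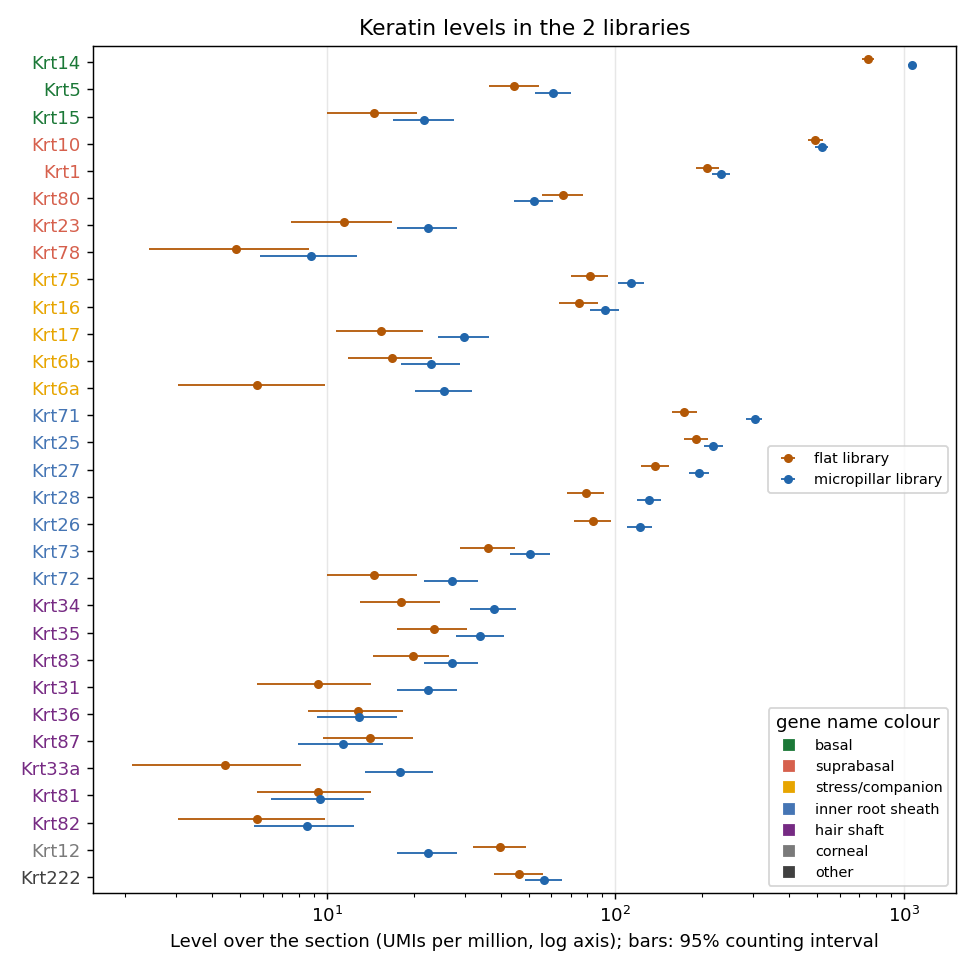
Level of each of the 31 keratins with at least 20 UMIs, in CPM on a log axis, in the flat (brown) and micropillar (blue) library, with bars for the 95% counting interval and gene names coloured by group. Each gene is to be compared with itself only: 28 of 31 lie farther right in the micropillar library, and Krt12, Krt80 and Krt87 lie farther left.

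The basal keratins were higher in the micropillar section by similar factors. Their sum was 812 CPM (flat) and 1149 CPM (micropillar), or 0.50 (0.42 to 0.58) as a log2 ratio. Krt14, the type I keratin of basal cells, had 1703 and 3385 UMIs (log2 0.50, 0.42 to 0.59). Its type II partner Krt5 had 101 and 193 UMIs (0.44, 0.09 to 0.81). Krt15, a basal keratin also known from the follicle bulge, had 33 and 69 UMIs (0.55, -0.04 to 1.22), so that its interval included 0. None of the 3 passed 1.5-fold. The ratio of Krt14 to Krt5 UMIs was 16.9 (13.8 to 20.8) in the flat section and 17.5 (15.2 to 20.4) in the micropillar one, a difference well within counting error.

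The suprabasal keratins were nearly level between the sections. Their sum was 792 and 837 CPM, and the interval of the log2 ratio included 0 (0.08, -0.01 to 0.17). This value turned with the choice of spots, to 0.87 in spots with at least 500 UMIs, -0.56 with every spot weighted equally and -0.23 without gland spots. Krt10 had 1117 and 1644 UMIs (0.07, -0.04 to 0.18) and Krt1, its type II partner, 471 and 737 UMIs (0.16, -0.01 to 0.33). The ratio of Krt10 to Krt1 was 2.37 (2.13 to 2.65) and 2.23 (2.04 to 2.44). The proportion of this differentiation pair differed by less than counting error. Krt80, a keratin of differentiating epithelia, had 149 and 166 UMIs and was lower in CPM (-0.33, -0.66 to -0.003). Krt23 had 26 and 71 UMIs (0.90, 0.30 to 1.67) and Krt78 11 and 28 UMIs (0.75, -0.19 to 2.02), both past 1.5-fold. With every spot weighted equally Krt23 was at 0.43 and Krt78 at 0.57, and Krt78 was at 0.04 without gland spots. Krt10 and Krt80 each overlap an annotated antisense gene, and whether strand was used in counting is unstated. Krt2, Krt9 and Krt77, which mark the upper layers, sole skin and sweat ducts, had 3, 11 and 5 UMIs in the flat section and 1, 7 and 3 in the micropillar one. They and the other members under 30 UMIs that are named were picked after their values were seen.

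Among the keratins of hyperproliferation and the companion layer, Krt6a differed most. It had 13 UMIs in the flat library, with no more than 1 in any of 13 spots, and 81 in the micropillar library over 69 spots, with a log2 ratio of 1.98 (1.30 to 3.12). Its near-identical neighbour Krt6b had 38 and 73 UMIs (0.43, -0.13 to 1.06). Reads of this pair can be misassigned between them, so the ratio of Krt6a to Krt6b, 0.34 (0.17 to 0.66) and 1.11 (0.80 to 1.54), rests on how the authors' pipeline separated them. Krt6a also overlaps an annotated antisense gene. Krt17, a keratin of stressed epidermis and of follicle sheaths, had 35 and 95 UMIs (0.91, 0.38 to 1.56). Krt16, the type I partner of Krt6 proteins, had 169 and 291 UMIs (0.29, 0.02 to 0.58). Krt75, of the companion layer, had 185 and 359 UMIs (0.46, 0.21 to 0.73). The sum of the 5 was 194 and 283 CPM (0.54, 0.38 to 0.71). All 5 were higher in the micropillar library, except that Krt16 was at -0.09 with every spot weighted equally, and 2 of them, Krt6a and Krt17, were past 1.5-fold. Krt17 was at 0.56, short of 1.5-fold, with every spot weighted equally.

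All 7 inner root sheath keratins were higher in the micropillar section, from 0.20 to 0.85 on the log2 scale. Their sum was 714 CPM (1616 UMIs) in the flat section and 1047 CPM (3323 UMIs) in the micropillar one (0.55, 0.47 to 0.64). Of the type II genes, Krt71 had 392 and 963 UMIs (0.81, 0.64 to 0.98), Krt72 33 and 86 (0.85, 0.30 to 1.52) and Krt73 82 and 161 (0.47, 0.09 to 0.89). Of the type I genes, Krt28 had 179 and 416 UMIs (0.72, 0.47 to 0.99), Krt26 189 and 385 (0.53, 0.28 to 0.80), Krt27 310 and 618 (0.50, 0.31 to 0.71) and Krt25 431 and 694 (0.20, 0.02 to 0.38). Krt71, Krt72 and Krt28 were past 1.5-fold, but without gland spots Krt71 was at 0.55 and Krt28 at 0.39, short of it. Krt25 was nearest to level. The ratio of Krt25 to Krt71 was 1.10 (0.96 to 1.26) in the flat section and 0.72 (0.65 to 0.80) in the micropillar library, and these intervals do not overlap. The same ratio within spots that held both barrier and hair genes was 1.14 (0.98 to 1.32) and 0.74 (0.66 to 0.82). For Krt28 over Krt71 the values were 0.46 (0.38 to 0.55) and 0.43 (0.38 to 0.49).

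The hair shaft keratins, the hard keratins that cornify in the hair itself, were higher in sum, but their members varied. Their sum was 122 CPM (277 UMIs) and 187 CPM (593 UMIs), a log2 ratio of 0.61 (0.40 to 0.82). Krt33a had 10 and 57 UMIs (1.81, 1.04 to 3.16), Krt31 21 and 71 (1.19, 0.55 to 2.05) and Krt34 41 and 120 (1.02, 0.54 to 1.61). These 3 related genes were the shaft genes past 1.5-fold, and reads can be misassigned among them. They lie close together on chromosome 11, with Krt33b, which is not among the listed genes, between Krt33a and Krt34. Krt35, a keratin of the hair matrix and cuticle, had 53 and 108 UMIs (0.52, 0.05 to 1.04). Krt83 had 45 and 86 (0.43, -0.09 to 1.00) and Krt82 13 and 27 (0.50, -0.44 to 1.65). Krt36 with 29 and 41 UMIs, Krt81 with 21 and 30 and Krt87 with 32 and 36 lay between -0.29 and 0.02, each with an interval that included 0. Krt81, Krt83 and Krt87 are close paralogs with the same uncertainty.

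Keratins of other epithelia were scarce. The 4 simple epithelial keratins, which line glands and ducts, summed to 8 and 14 UMIs, of which Krt8 had 4 and 12. Krt18, the partner of Krt8, is not among the 19465 listed genes and so could not be counted. Krt4 and Krt13, the mucosal pair, had 0 and 1 and 0 and 2 UMIs. Krt12 and Krt222 were the exceptions and are described last.

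Lists of non-keratin genes of the barrier, of basal keratinocytes and of the hair follicle showed the same order in their sums. Of all genes with at least 20 UMIs, 9.00% were past 1.5-fold higher and 4.17% lower, the background for each list. The barrier list was level, at 3218 and 3159 CPM (-0.03, -0.07 to 0.02), with 3 of 23 genes past 1.5-fold higher and 1 lower. Of a list of basal keratinocyte genes 3 of 10 were past 1.5-fold higher and 0 lower, with a sum at 0.35 (0.19 to 0.51). Of the hair follicle list 11 of 18 were past 1.5-fold higher and 0 lower, with a sum at 0.64 (0.57 to 0.71). Within it, Tchh (trichohyalin, the inner root sheath's matrix protein) had 1663 and 3509 UMIs (0.59, 0.50 to 0.67). The transcription factor Hoxc13, a regulator of shaft keratins, had 42 and 85 UMIs (0.51, -0.02 to 1.10). Foxn1, the gene lost in the classical nude strain and a regulator of hair keratins, had 1 and 6 UMIs. Of 2 further skin lists, the sebaceous sum was at -0.18 (-0.43 to 0.08), with 0 of 4 genes past 1.5-fold higher and 1 lower. The melanocyte sum was at 0.13 (-0.40 to 0.68), and both intervals included 0. Set against the barrier list, keratin UMIs were 0.85 (0.82 to 0.88) per barrier UMI in the flat section and 1.14 (1.11 to 1.17) in the micropillar one. Set against the hair follicle list the order was the opposite, at 2.86 (2.73 to 3.01) and 2.42 (2.34 to 2.50) keratin UMIs per UMI of the list.

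The make-up of keratin RNA differed between the sections mainly in its suprabasal part. Suprabasal keratins were 29.0% of keratin UMIs (27.9 to 30.2) in the flat section and 23.3% (22.6 to 24.1) in the micropillar one. Inner root sheath keratins were 26.2% (25.1 to 27.3) and 29.2% (28.3 to 30.02), and basal keratins 29.7% (28.6 to 30.9) and 32.0% (31.2 to 32.9). Companion and hyperproliferation keratins were 7.12% and 7.89%, and shaft keratins 4.48% and 5.21%. Per suprabasal UMI there were 1.02 basal UMIs (0.96 to 1.09) in the flat section and 1.37 (1.30 to 1.44) in the micropillar library.

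The suprabasal difference lay in the shallow spots. In spots under 500 UMIs, suprabasal keratins were 38.0% (36.0 to 39.9) of 2445 keratin UMIs in the flat section and 18.4% (16.6 to 20.4) of 1660 in the micropillar one. Inner root sheath keratins in the same spots were 17.6% (16.1 to 19.2) and 30.8% (28.6 to 33.1). In spots with at least 500 UMIs the suprabasal shares had overlapping intervals, at 23.2% (21.8 to 24.6) and 24.2% (23.3 to 25.0), and the inner root sheath share was higher in the flat library, at 31.8% (30.3 to 33.3) against 28.9% (28.0 to 29.8). The basal share was lower in the flat library in the deep spots, at 27.0% (25.5 to 28.4) against 31.3% (30.35 to 32.2). In the shallow spots its intervals overlapped, at 34.0% (32.1 to 35.9) against 36.4% (34.1 to 38.75).

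**Figure D2:**
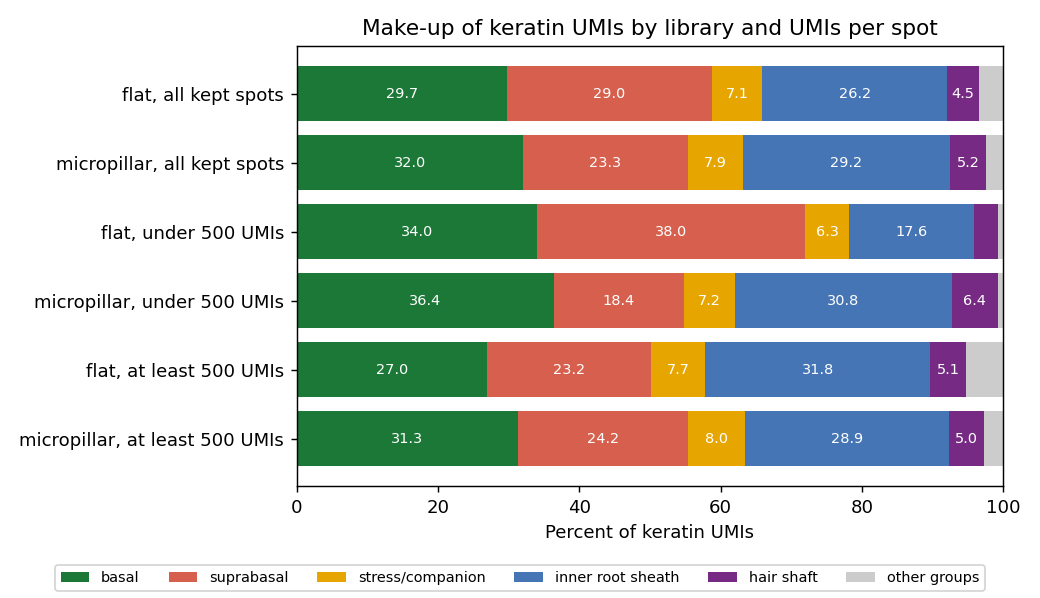
Share of keratin UMIs, in percent, taken by each group of keratins in each library, for all kept spots and for spots under 500 UMIs and of at least 500 UMIs. The suprabasal part (red) is wider in the flat library in the shallow spots, at 38.0% against 18.4%, and about as wide as in the micropillar library in the deep ones, at 23.2% against 24.2%.

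To find out where keratins lay, spots were classed by non-keratin genes: barrier spots had at least 2 UMIs of the epidermal barrier list, hair spots at least 2 of the hair follicle list, and some had both. These skin-gene spots numbered 462 in the flat section and 850 in the micropillar one and held 88.4% and 88.7% of keratin UMIs, on 17.2% and 27.7% of the spots. Spots with barrier and hair genes held 14 and 12 keratin UMIs in the median, against 8 and 2 in spots with barrier genes alone. The hair list is carried mostly by Tchh, whose UMIs were 1663 of 2157 and 3509 of 4714.

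Follicle and epidermal keratins separated between these classes in the flat library. Each of the 7 inner root sheath genes had 76.8% to 88.4% of its UMIs in barrier-and-hair spots of the flat library and 80.2% to 87.6% in those of the micropillar library. Krt75 was placed likewise, with 76.2% and 87.7%, and so were Krt35 (84.9% and 88.9%) and Krt83 (82.2% and 86.0%). Krt1 and Krt10 were in barrier spots, with 88.1% and 84.4% of their UMIs in the flat library. In the micropillar library these shares were lower, at 65.7% and 62.4%, and 20.8% and 21.5% lay in barrier-and-hair spots, against 5.10% and 3.22% in the flat library. Krt16 (71.6% and 58.4% in barrier spots) and Krt6b (81.6% and 60.3%) resembled Krt1 and Krt10 rather than Krt75. Krt6a lay between, with 5 of 13 flat and 30 of 81 micropillar UMIs in barrier spots and 6 and 44 in barrier-and-hair spots. Krt14 was divided between both classes, 58.4% and 34.4% in the flat section and 45.1% and 45.4% in the micropillar one.

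**Figure D3:**
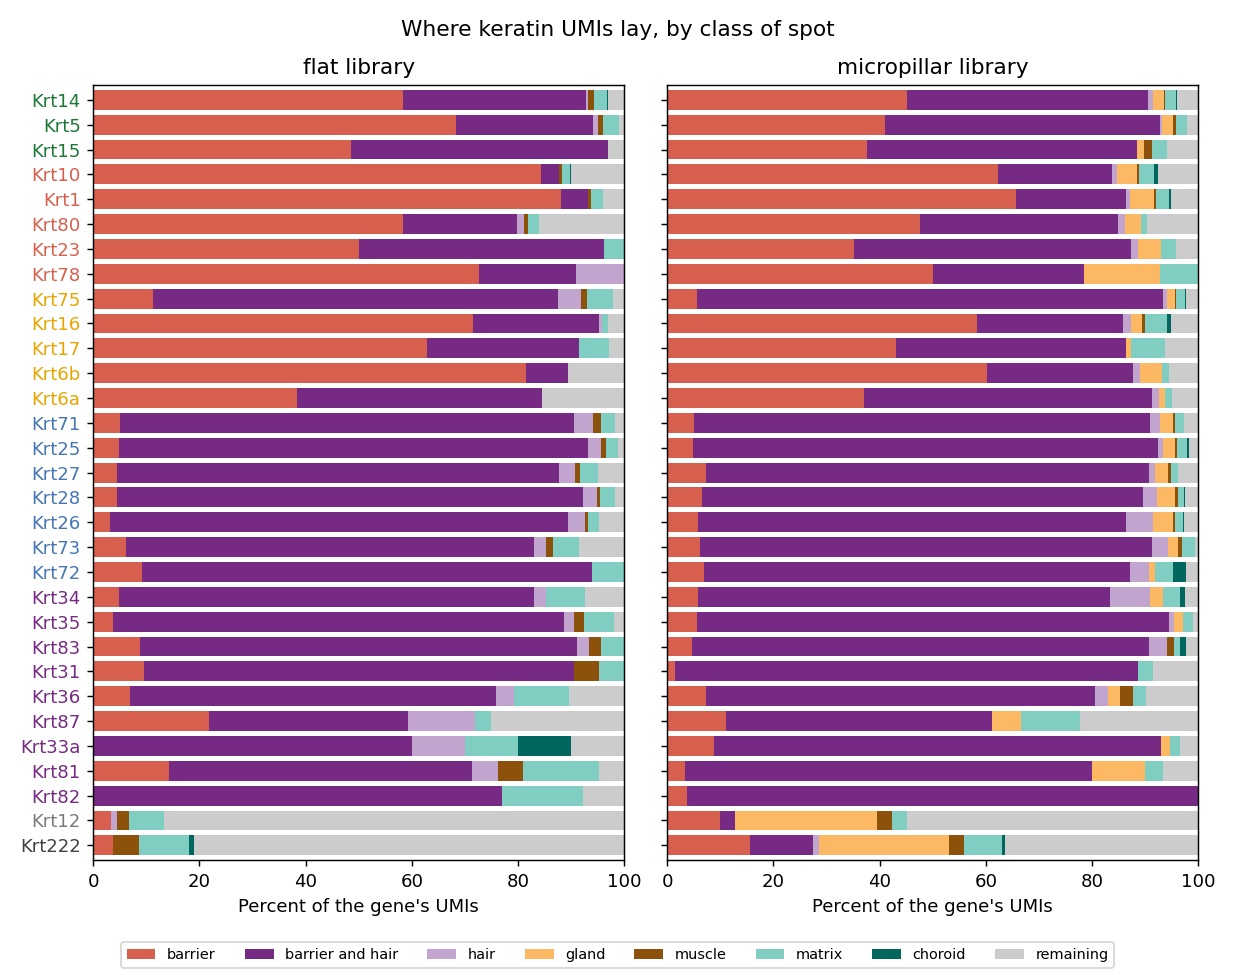
Percent of each keratin's UMIs in each class of spot, in the flat (left) and micropillar (right) library, with gene names coloured by group as in the plot of levels. Inner root sheath genes fill with the barrier-and-hair class (purple) and Krt1 and Krt10 with the barrier class (red). Krt12 and Krt222 fill with the remaining spots (grey) and, in the micropillar library, also gland spots (orange). Krt222 in the micropillar library lies in skin-gene spots as well.

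In barrier-and-hair spots the inner root sheath genes made up 55.0% (53.0 to 56.9) of keratin UMIs in the flat section and 46.0% (44.8 to 47.3) in the micropillar one, while suprabasal keratins made up 4.21% (3.46 to 5.07) and 10.0% (9.29 to 10.8). Basal UMIs per suprabasal UMI were 5.92 (4.82 to 7.35) and 2.73 (2.49 to 2.999) there, the reverse of the order over the whole section. In barrier spots they were 0.74 (0.68 to 0.80) and 1.00 (0.93 to 1.07). The difference in basal to suprabasal proportion between the sections thus depended on the class of spot. The classes were not alike in the 2 libraries. Barrier-and-hair spots had the neural list at 465 (flat) and 4757 CPM (micropillar), with medians of 511 and 817 UMIs. Barrier spots had it at 4018 and 6461 CPM, with medians of 431.5 and 846 UMIs. The part of this in these ratios, and in the class shares of Krt1 and Krt10 given above, was not tested.

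Within skin-gene spots the keratins as a whole were lower in the micropillar library. They summed to 20210 CPM (flat) and 11237 CPM (micropillar), or -0.85 (-0.89 to -0.80) on the log2 scale, opposite to the 0.40 (0.35 to 0.44) of the whole section. Of the 30 keratins with at least 20 UMIs in these spots, 19 were past 1.5-fold lower (background 18.9% of 8913 genes) and 3 past 1.5-fold higher (background 26.4%). The suprabasal sum was lowest, at -1.21 (-1.30 to -1.12), followed by basal (-0.77), companion and hyperproliferation (-0.74), inner root sheath (-0.71) and shaft (-0.55). The 3 higher ones were Krt6a, with 11 and 75 UMIs (1.02, 0.11 to 2.10), Krt33a, with 7 and 53 (1.16, 0.04 to 2.57), and Krt222, with 4 and 51 (1.87, 0.49 to 3.87). Krt6a and Krt33a were thus past 1.5-fold higher both in skin-gene spots and over the section.

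Other genes moved with this result. In the same spots the barrier list had a log2 ratio of -1.29 and the hair follicle list of -0.61, while the neural list was higher, at 2998 and 5724 CPM (0.93), and gland secretion genes were at 29.6 and 1513 CPM. Skin-gene spots also held a median of 453 UMIs in the flat section and 809.5 in the micropillar one. The part of this depth and of the other tissue in the keratin ratio was not tested.

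**Figure D4:**
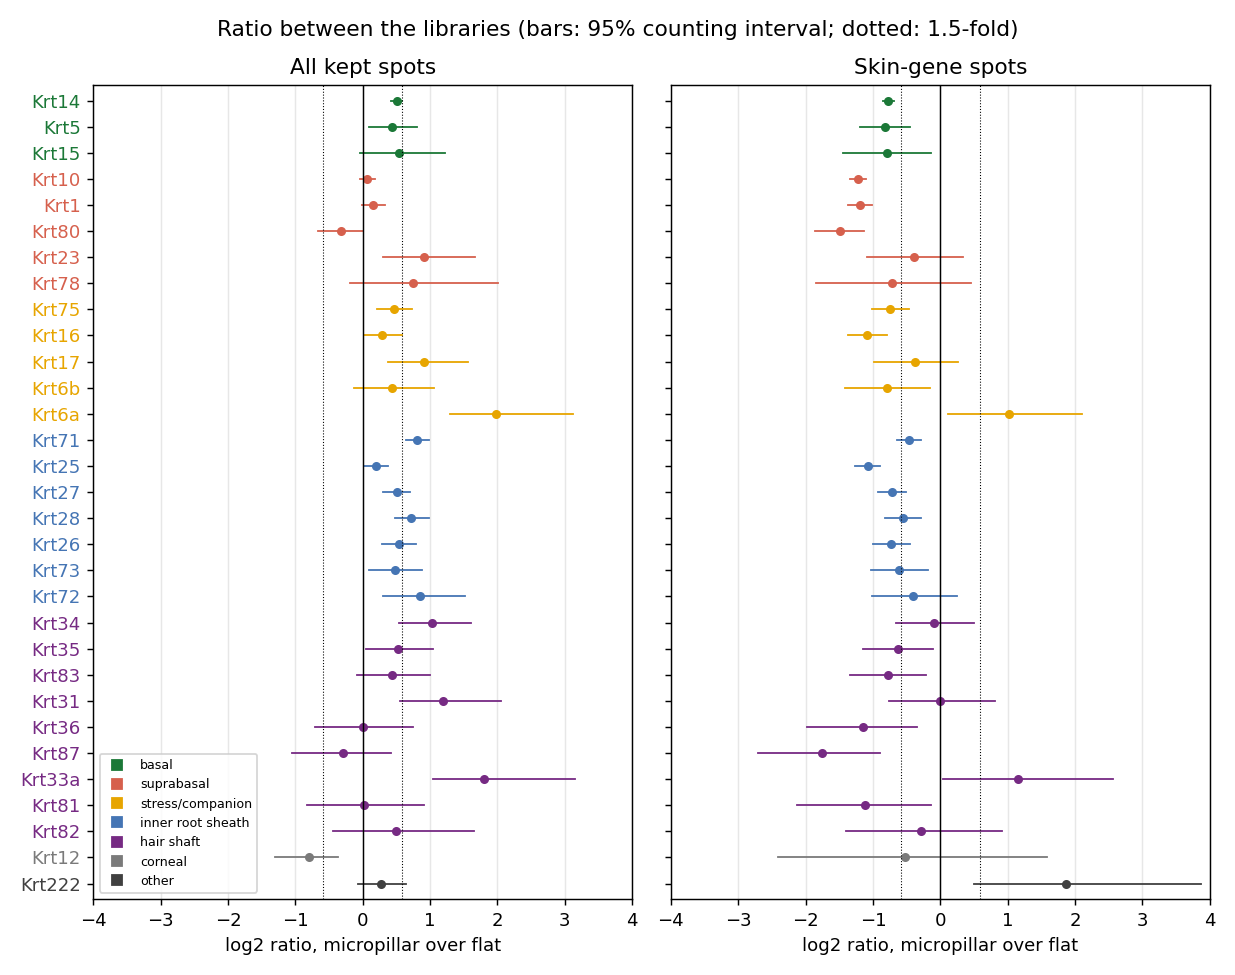
Log2 ratio of micropillar over flat for each of the 31 keratins, over all kept spots (left) and within skin-gene spots (right), with 95% counting intervals and dotted lines at 1.5-fold, genes coloured by group. On the left 28 lie right of 0, and on the right 3 do.

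Keratins of one compartment were detected in the same spots more often than their separate frequencies give. Within skin-gene spots, where the tissue is more alike than over the section, Krt71 and Krt25 were both present in 91 of 462 flat spots against 33.0 expected from independence (2.76 times) and in 150 of 850 micropillar spots against 65.5 (2.29 times). Of the pairs of inner root sheath genes with at least 5 spots expected, all 18 in the flat section and all 21 in the micropillar one were above 1, from 2.61 to 3.93 and from 2.11 to 3.91. Inner root sheath genes were found with shaft genes as much, in 13 of 13 and 42 of 42 such pairs, at medians of 2.85 and 3.09. Krt1 and Krt10 were together in 134 spots against 67.2 (1.99 times) and in 141 against 70.8 (1.99 times).

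Suprabasal keratins met most follicle keratins less often than independence gives in the flat section, and less evenly so in the micropillar one. Krt10 and Krt25 shared 27 flat spots against 54.7 expected (0.49 times) and 56 micropillar spots against 77.3 (0.72 times). Between suprabasal and inner root sheath genes 16 of 23 pairs in the flat section and 15 of 28 in the micropillar one were below 1, and between suprabasal and shaft genes 14 of 15 and 16 of 20. Basal keratins did not share this: with inner root sheath genes 11 of 18 flat and 20 of 20 micropillar pairs were above 1, at medians of 1.07 and 1.22, and with shaft genes 6 of 10 and 14 of 15. As summed groups, suprabasal and inner root sheath keratins met 0.76 times the expected number in the flat section and 1.06 times in the micropillar library. Skin-gene spots were chosen for having barrier or hair genes. Such a choice can by itself lower co-detection between epidermal and follicle keratins. Its part in these ratios, and in those of Krt75 with Krt10 given next, was not tested. Over all kept spots, most of which held no skin genes, Krt10 with Krt25 was at 1.66 and 1.36 times. After thinning to 250 UMIs within skin-gene spots, Krt10 with Krt25 was at 0.30 and 0.52 times and Krt71 with Krt25 at 2.81 and 3.07 times.

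Co-detection divided the stress and companion keratins. Krt6b was found with Krt16 in 17 spots against 5.46 expected (3.11 times) in the flat section and in 34 against 7.2 (4.72 times) in the micropillar one. Krt75 was found with Krt16 at 1.20 and 0.90 times, near independence. It was found with Krt71 at 2.53 and 2.43 times and with Krt10 at 0.35 and 0.60 times. Krt75 thus grouped with the inner root sheath genes, its anatomical neighbours, and Krt6b with Krt16. Krt6a was found with Krt16 in 5 flat spots against 2.40 expected (2.08 times) and in 30 micropillar spots against 10.1 (2.98 times), but with Krt71 at 1.40 and 1.19 times. Krt5 and Krt14 were at 1.34 and 1.42 times, a ratio limited by Krt14 itself, which was in 329 of 462 and 531 of 850 of these spots.

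**Figure D5:**
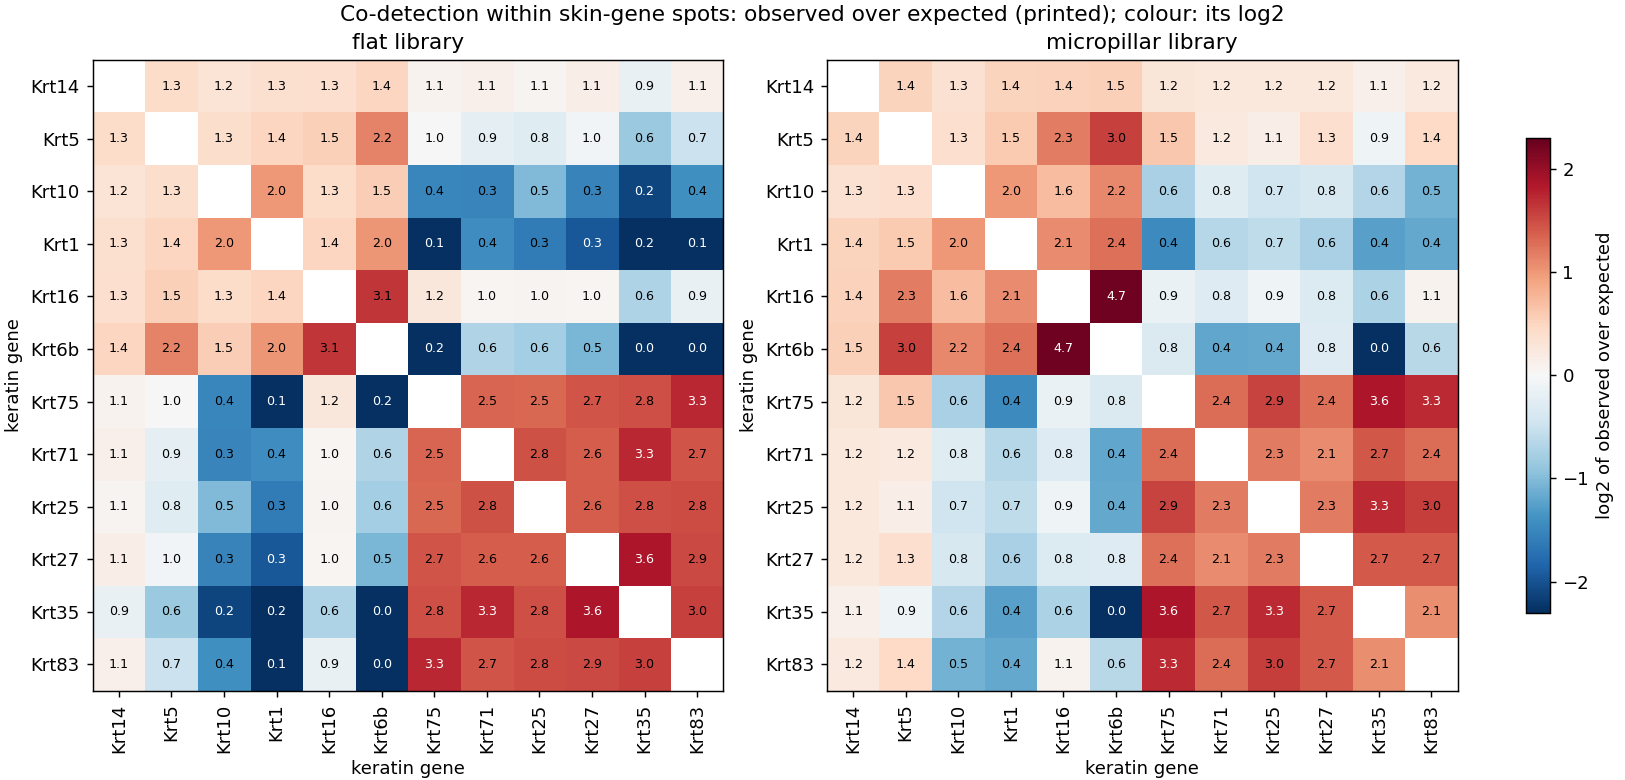
Observed over expected number of skin-gene spots with both of a pair of keratins, printed in each cell and coloured by its log2, for 12 keratins in the flat (left) and micropillar (right) library. Krt75, Krt71, Krt25, Krt27, Krt35 and Krt83 form a block above 2 in both, and Krt10 and Krt1 with these genes are below 1.

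The leading group of keratin UMIs differed from spot to spot. Of 332 flat and 491 micropillar spots with at least 5 keratin UMIs, inner root sheath keratins were the majority of keratin UMIs in 20.8% and 25.7%, suprabasal keratins in 28.9% and 15.1%, and basal keratins in 28.3% and 27.9%. The largest inner root sheath sum in 1 spot was 56 UMIs in the flat section and 72 in the micropillar one. The 10 spots richest in Krt25 held 28.8% and 19.4% of its UMIs, and those richest in Krt14 held 11.2% and 9.96%.

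Over all kept spots, the 5 non-keratin genes most like each group, among 7174 with at least 50 UMIs in each library, were named by Spearman correlation of counts scaled to the UMIs of the spot, as a description over spots that share a library and differ in depth. Inner root sheath keratins were most like Tchh (rho 0.57 over 2681 flat and 0.51 over 3064 micropillar spots), Prr9, Sprr1a, Lgals7 and Padi3. Shaft keratins were most like Padi3 (0.45 and 0.42), Prr9, Tchh, Sprr1a and AI661453. Suprabasal keratins were most like Krtdap (0.53 and 0.34), Flg, Lgals7, Calm4 and Fam25c. Basal keratins were most like Lgals7 (0.68 and 0.54), Sprr1a, Fxyd3, Epcam and Cst6, and companion and hyperproliferation keratins like Lgals7 (0.54 and 0.48), Sprr1a, Epcam, Fxyd3 and Sdc1.

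Outside skin-gene spots, keratin UMIs were sparse. The remaining spots, with fewer than 2 UMIs of every list used (barrier, hair, gland, muscle, matrix, choroid plexus), held 474 keratin UMIs in 1372 flat and 587 in 1131 micropillar spots, or 290 (264 to 317) and 457 (420 to 495) CPM, and 27.6% and 38.4% of these spots had a keratin UMI at medians of 982.5 and 1001 UMIs. Choroid plexus spots had at least 2 UMIs of a list of choroid plexus and ependyma genes, of brain ventricle tissue that should lack skin keratins. They were not this tissue alone, with the neural list at 11397 and 11882 CPM against 8890 and 8530 in remaining spots. The choroid plexus list was also found in skin-gene spots, at 88.8 and 540 CPM. Keratins in choroid plexus spots were at 136 CPM (54.6 to 280) in 74 flat and 764 CPM (519 to 1085) in 54 micropillar spots, from 7 and 31 UMIs. Of these spots 9.46% and 42.6% had a keratin UMI at medians of 637.5 and 666 UMIs. In the micropillar library the remaining spots thus lay at or below this reference. In the flat library they lay above it in share of spots. That measure rises with UMIs per spot, and the flat remaining spots had the higher median. Without Krt12, Krt222 and the other members outside the 5 skin groups, they were still above it in this measure, at 19.5% against 8.11% of spots. In CPM they were then at 188 (167 to 210) against 116 (42.8 to 254) in choroid plexus spots, with overlapping intervals. In remaining spots Krt14 was at 31.8 and 106 CPM and Krt71 at 4.28 and 20.2 CPM. The ratio of Krt10 to Krt1 in these spots was 5.89 (3.60 to 10.2) in the flat section and 3.32 (2.29 to 4.90) in the micropillar one, against 2.23 (1.99 to 2.50) and 2.17 (1.97 to 2.38) in skin-gene spots. The flat intervals do not overlap, so there the 2 genes were not in 1 ratio throughout the section.

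Krt12 and Krt222 had most of their flat UMIs outside skin. Krt12, known as the keratin of the corneal epithelium, had 90 UMIs in the flat section and 71 in the micropillar one, the only 1 of the 31 keratins past 1.5-fold lower (-0.80, -1.30 to -0.36). With every spot weighted equally Krt12 was at -0.26, and Krt10 was the keratin past 1.5-fold lower, at -0.65. Of the Krt12 UMIs, 86.7% and 54.9% lay in remaining spots and 4.44% and 12.7% in skin-gene spots. Remaining spots held 1635726 of all 2263345 flat and 1285182 of all 3173632 micropillar UMIs. In CPM, Krt12 was at 14.8 (4 UMIs) in skin-gene and 43.15 in other spots of the flat library. In the micropillar library these were 10.02 (9 UMIs) and 27.25 CPM. Among remaining spots, those with at least 2 UMIs of Slc17a7, the vesicular glutamate transporter of cortical neurons, had Krt12 at 71.4 CPM (53.7 to 93.2) against 27.3 (17.5 to 40.6) in the others of the flat library, and at 63.5 (40.3 to 95.3) against 17.3 (9.91 to 28.1) in the micropillar library. Over all kept spots the genes most like Krt12 were Nrgn, Chn1, Camk2a, Slc17a7 and Camk2n1, with weak correlations of 0.14 to 0.23. Slc17a7 itself was lower in the micropillar library, at 854 and 542 CPM (-0.66, -0.75 to -0.56), beside the lower Krt12. Krt12 overlaps an annotated antisense gene, and reads of the 2 cannot be told apart without strand.

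Krt222, a keratin-like gene of the type I cluster, had 105 UMIs in the flat section and 179 in the micropillar one (0.28, -0.07 to 0.64). Its level in remaining spots was 52.0 and 50.6 CPM. It was the same within counting error with and without Slc17a7, at 51.6 and 52.3 CPM in the flat section and 52.5 and 49.8 CPM in the micropillar library. In the flat library 81.0% of its UMIs lay in remaining and 3.81% in skin-gene spots, which held 1635726 and 270213 of all 2263345 UMIs. In the micropillar library 36.3% lay in remaining, 28.5% in skin-gene and 24.6% in gland spots. Those classes held 1285182, 898607 and 588535 of all 3173632 UMIs. In CPM, Krt222 was at 14.8 (4 UMIs) in skin-gene and 50.67 in other spots of the flat library. In the micropillar library it was level, at 56.75 and 56.26 CPM. The genes most like it were Nefl, Nat8l, Stmn3, Atp6v1g2 and Snap25, again weakly (0.14 to 0.18). Krt12 and Krt222 were looked at in neural spots after their values were seen.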

How the data were processed

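The authors deposited raw UMI counts per gene and spot, per the file headers made with Space Ranger 2.0.1. Cell Ranger 7.2.0 and mm10 are listed in the submitters' processing notes, and a directional mRNA kit per the labels' protocol. No source used here states the probe set, the aligner settings or the use of strand, which bear on how reads of near-identical keratins were assigned. Spots with at least 100 UMIs were kept (2681 of 3161 flat, 3064 of 3303 micropillar). Of the barcodes, which name grid positions, 2135 occur in both libraries. All 48 keratin identifiers matched GENCODE M21. The keratins and gene lists were chosen with earlier results of these data known. 9 list entries (Krt79, Krt18, Krt74, Krt33b, Krt85, Krt86, Krt88, Padi1, Obp1b) are not among the listed genes, so their groups are incomplete.

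Counts were summed over spots, scaled to CPM and compared as log2 ratios after adding 1 CPM to each. Intervals are 95% and exact, Poisson for sums and Clopper-Pearson for shares and ratios, the latter on counts alone. Those of ratios were run on simulated Poisson counts. Such counts hold no spread between spots or sections, so this checked only the calculation. With 1 library per group there is no p-value. Keratins with at least 30 UMIs over both libraries were named, and fold counts used those with at least 20. Co-detection was set against the product of both genes' shares of spots. Doublets were not called, because spots can hold several cells. Alternatives covered the UMI minimum per spot and per gene, scaling (TMM in edgeR 4.0.16, size factors in DESeq2 1.42.0, R 4.3.3), spot weighting, pseudocount, thinning and classes of spots. Python 3.11.15, numpy 2.4.6, scipy 1.17.1 and pandas 2.3.3 were used.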

Additional observations from a re-analysis of the deposited data

Results flagged for a closer look

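Spots with fewer than 100 UMIs were left out of the values in the report and entered only the alternative that kept every spot, yet they held keratin UMIs. In the flat library these 480 spots had 55 keratin UMIs among 22950 (0.240%, 95% Clopper-Pearson interval 0.181 to 0.312), and in the micropillar library 239 spots had 85 among 15345 (0.554%, 0.443 to 0.685). A count of 0 would allow 0.0131% and 0.0196%. The kept spots were at 0.273% and 0.359%.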

How the results depend on the processing

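Each library is 1 section, so section-to-section spread is unknown and counts under about 30 UMIs fix only large ratios. No paired analysis was possible because each group has 1 library. Skin-gene spots at 5 UMIs and co-detection within skin-gene spots were chosen after seeing the data. The cause of the differences that follow was not tested. The pseudocounts of 0.1 and 5 CPM, and keeping every spot, left all 31 keratins and all group sums within their counting intervals (Krt78 was under 1.5-fold at 5 CPM, at 0.49, leaving 9 keratins past it), and TMM and DESeq2 scaling, which lowered the median of all genes by under 0.1, moved the sum of all keratins alone, from 0.40 to 0.34 with both.

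The log2 ratio of all keratins was 0.81 in spots with at least 500 UMIs, 0.072 as the mean of per-spot CPM, 0.21 without gland spots, 0.34 without muscle spots, and -0.85 and -0.64 in skin-gene spots at 2 and 5 UMIs of a list. In spots with at least 500 UMIs the basal sum was at 1.02, the suprabasal at 0.87, the companion and hyperproliferation at 0.86 and the inner root sheath at 0.67. As means of per-spot CPM these were 0.19, -0.56, 0.21 and 0.46. Without gland spots basal was 0.41, suprabasal -0.23, inner root sheath 0.33 and shaft 0.38, and without muscle spots inner root sheath was 0.45. In skin-gene spots basal was -0.77 (-0.56 at 5 UMIs), suprabasal -1.21 (-1.04), companion and hyperproliferation -0.74 (-0.50), inner root sheath -0.71 (-0.48) and shaft -0.55 (-0.29). Keratins past 1.5-fold higher numbered 22 in spots with at least 500 UMIs and 3 in skin-gene spots at either threshold. Those lower numbered 3 with a minimum of 10 UMIs, and 19 and 12 in skin-gene spots. The share of all genes was not computed with that minimum or at 5 UMIs of a list.

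Single keratins that turned in skin-gene spots, with the value at 5 UMIs in brackets where it turned too, were Krt25 at -1.08 (-0.83), Krt26 -0.72 (-0.52), Krt27 -0.72 (-0.53), Krt28 -0.56 (-0.26), Krt71 -0.46 (-0.25), Krt72 -0.40 (-0.15), Krt73 -0.61 (-0.33), Krt14 -0.77 (-0.56), Krt5 -0.82 (-0.60), Krt16 -1.08 (-0.86), Krt17 -0.37 (-0.30), Krt75 -0.74 (-0.41), Krt23 -0.40 (-0.22), Krt35 -0.63 (-0.40), Krt34 -0.094 and Krt31 -0.0042. Krt12 was at 0.47 at 5 UMIs, and Krt16 at -0.087 as the mean of per-spot CPM.

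Differences in make-up, micropillar minus flat in percentage points, were 4.32 (basal), 0.98 (suprabasal), -2.88 (inner root sheath) and -0.15 (shaft) in spots with at least 500 UMIs. Without gland spots they were 4.36 for basal and -7.64 for suprabasal, and as means of per-spot shares -0.22, -9.07, 6.65 and 1.63 for basal, suprabasal, inner root sheath and shaft. Co-detection of Krt71 with Krt25 was 24.8 and 15.7 times at 2 UMIs of each gene (flat, micropillar), 2.76 and 2.29 within skin-gene spots, 14.7 (flat) at 500 UMIs per spot and 8.28 (micropillar) thinned. Krt10 with Krt25 was 0.51 and 0.71 at 2 UMIs and 0.49 and 0.72 within skin-gene spots. Krt1 with Krt10 was 15.2 and 12.7 at 2 UMIs, 1.99 in both within skin-gene spots, 10.3 and 6.49 thinned and 4.81 (flat) at 500 UMIs per spot. The share of keratin UMIs in skin-gene spots was 91.6% and 93.5% at 1 UMI of a list and 83.8% and 80.2% at 5.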
